A study of Mus musculus with 2 samples.

Results

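The constitutive proteasome genes of the mouse were examined for open chromatin in the thymus. They were taken as the protein-coding genes of the GENCODE M21 annotation whose symbol starts with Psma, Psmb, Psmc, Psmd, Psme, Psmf or Psmg, without the inducible catalytic subunits Psmb8, Psmb9 and Psmb10 and the thymic epithelial subunit Psmb11. The rule found 46 of 21938 protein-coding genes. It uses names only and no measured value. The rule follows symbols and not function, so it also takes in Psma8, a subunit of the meiotic proteasome of the testis, Psme2b, and Psmc3ip, a recombination protein that is no proteasome subunit.

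DNase-seq, which maps where the enzyme DNase I can cut chromatin, was run on whole thymus tissue of male B6CASTF1/J mice aged 2 months, the first-generation cross of C57BL/6J and CAST/EiJ. There is 1 group of 2 samples, with no treatment, transgene or control group in the labels. The labels name biological replicate 1 and biological replicate 2. Their animal numbers differ, yet 1 donor identifier covers both samples. No test was possible with 1 group of 2 samples, so each value is a description. The deposited files, on the mm10 build, give a signal score for each peak of accessible chromatin, and footprints, which are short stretches inside accessible DNA that are protected from cutting. The total read depth is not in the deposited tables used here.

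The proteasome is the barrel-shaped protease that destroys proteins tagged with ubiquitin. Its core particle, the 20S, is built from rings of alpha subunits, which form the gate, and rings of beta subunits, of which Psmb5, Psmb6 and Psmb7 carry the proteolytic sites. The 19S cap recognises ubiquitin chains, removes them and unfolds the substrate with a ring of ATPases. In cells exposed to interferon the catalytic subunits are exchanged for inducible ones, and cortical thymic epithelium uses Psmb11 in the place of Psmb5.

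The promoters themselves are shown first, because the motif matches and footprints described further on lie in these letters. Each sequence is the part of the highest promoter peak that both replicates share, ending at most 29 bases past the transcription start site (TSS), written 5′ to 3′ on the strand of the gene from the GRCm38 (mm10) reference. Capitals mark bases that lie in a footprint of both replicates. The reference is C57BL/6J, so alleles of the CAST/EiJ parent are not represented. Positions are counted in the direction of the gene from the annotated TSS nearest to the peak, which is position 0.

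The first set has footprinted matches to CCGGAA, the core that proteins of the ETS family recognise. Psmd4 at chr3:95042585-95042740, minus strand, has the highest promoter score of the 46 genes, and its match starts at position -125. Psmb1 at chr17:15499741-15499880, minus strand, and Psmc6 at chr14:45329661-45329817, plus strand, both hold a match from position -64 to position -59, in opposite directions. Psme4 at chr11:30771621-30771755, plus strand, has a match that spans the TSS, from position -4 to position 1. Psmd7 at chr8:107588435-107588580, minus strand, has its match from position 9 to position 14. Psmg1 at chr16:95990931-95991060, minus strand, has a match at position -69 of which a footprint covers only a part.
Psmd4: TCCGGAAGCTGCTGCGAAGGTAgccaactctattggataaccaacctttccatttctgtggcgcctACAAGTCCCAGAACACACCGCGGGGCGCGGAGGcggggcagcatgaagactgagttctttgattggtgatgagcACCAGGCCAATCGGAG
Psmb1: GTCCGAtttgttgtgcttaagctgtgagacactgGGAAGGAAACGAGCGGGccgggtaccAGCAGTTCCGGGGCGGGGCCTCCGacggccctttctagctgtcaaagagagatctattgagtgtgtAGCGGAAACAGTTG
Psmc6: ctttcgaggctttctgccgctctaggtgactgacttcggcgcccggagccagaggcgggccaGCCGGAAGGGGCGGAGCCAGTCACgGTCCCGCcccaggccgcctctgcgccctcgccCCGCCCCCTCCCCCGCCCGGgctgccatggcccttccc
Psme4: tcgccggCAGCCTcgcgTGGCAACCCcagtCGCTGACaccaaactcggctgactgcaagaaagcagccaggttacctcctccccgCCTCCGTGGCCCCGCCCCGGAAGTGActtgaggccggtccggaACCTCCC
Psmd7: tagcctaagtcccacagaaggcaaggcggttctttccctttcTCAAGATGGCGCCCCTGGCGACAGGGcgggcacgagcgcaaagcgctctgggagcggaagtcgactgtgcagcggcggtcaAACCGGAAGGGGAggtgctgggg
Psmg1: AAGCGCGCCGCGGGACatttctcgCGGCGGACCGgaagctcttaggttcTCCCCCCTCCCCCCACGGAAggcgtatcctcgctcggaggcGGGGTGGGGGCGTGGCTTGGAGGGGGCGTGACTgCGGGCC

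The second set shows other arrangements. Psmb2 at chr4:126677521-126677659, plus strand, is the most densely footprinted promoter of the set and carries CTCGCGAG, TGACGTCA and CCAAT (in the reverse direction) one after another from position -34 to position -12. Psmd5 at chr2:34870933-34871060, minus strand, carries CTCGCGAG at positions -71 and -25, both wholly under footprints. Psmb5 at chr14:54617993-54618140, minus strand, has a match to the antioxidant response element core at position -20. Psmc4 at chr7:28050081-28050360, minus strand, has the most stretches footprinted in both replicates after Psmd14.
Psmb2: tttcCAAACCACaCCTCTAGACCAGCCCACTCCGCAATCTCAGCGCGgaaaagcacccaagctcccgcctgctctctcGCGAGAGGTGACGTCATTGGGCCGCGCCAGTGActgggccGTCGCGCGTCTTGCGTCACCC
Psmd5: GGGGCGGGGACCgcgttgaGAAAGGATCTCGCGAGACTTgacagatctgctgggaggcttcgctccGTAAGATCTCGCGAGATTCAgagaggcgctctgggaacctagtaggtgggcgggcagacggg
Psmb5: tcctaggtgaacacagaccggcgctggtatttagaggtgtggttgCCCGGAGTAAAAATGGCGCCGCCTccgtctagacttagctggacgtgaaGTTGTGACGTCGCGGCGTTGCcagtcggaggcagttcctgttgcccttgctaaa
Psmc4: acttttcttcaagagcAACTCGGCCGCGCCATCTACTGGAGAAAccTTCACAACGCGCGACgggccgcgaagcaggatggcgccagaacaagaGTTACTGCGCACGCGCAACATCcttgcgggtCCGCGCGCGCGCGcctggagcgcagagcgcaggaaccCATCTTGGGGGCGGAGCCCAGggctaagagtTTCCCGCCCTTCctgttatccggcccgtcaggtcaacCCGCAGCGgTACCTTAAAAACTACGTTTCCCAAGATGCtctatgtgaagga

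Nearly all proteasome promoters were accessible. Of the 46 genes, 44 (95.7%) had a strict peak (an entry of the shorter of the 2 deposited peak lists) within 1000 bp of an annotated TSS in both replicates, against 59.0% of all protein-coding genes. The score used throughout is the highest such peak's deposited signal value, averaged over both replicates unless a replicate is named. Its median was 7.932 over the 46 genes and 1.957 over all protein-coding genes, where a gene with no peak counts as 0. Among genes with a peak in both replicates the gap was smaller, with medians of 8.33 for the proteasome genes and 6.827 for all. The middle 50% of the proteasome genes ran from 6.42 to 11.5, and that of all such genes from 3.36 to 10.7. Scores ran from 2.95 (Psmc1) to 17.04 (Psmd4), which are percentiles 54.3 and 97.4 among all protein-coding genes, and 8 of the 46 genes lay in the top 10%. An accessible promoter is not a measure of transcription, and in bulk tissue fewer cells with an open promoter and less cutting per cell cannot be told apart.

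Base composition moved with accessibility over all protein-coding genes. A CpG-rich 5′ end (observed over expected CpG of at least 0.6 and GC of at least 50% over 500 bp on either side) was found in 34 of the 46 genes (73.9%) and in 44.4% of all protein-coding genes. All 34 were accessible, as were 89.8% of the 9740 CpG-rich genes overall. Of the proteasome genes without a CpG-rich 5′ end, all but Psma8 and Psme2b were accessible too. For Psma6, Psmd5, Psmd9 and Psmf1 the composition is that of a 5′ end over 1000 bp from the start under the promoter peak. The median score over CpG-rich genes with a peak was 8.225, beside 9.311 for the CpG-rich proteasome genes. The part of base composition in the result was not tested.

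Other housekeeping complexes had values of the same order. Of 82 genes of the cytosolic ribosome 79 (96.3%) were accessible, with a median of 9.771 among those. Of 85 respiratory chain genes 79 (92.9%) were accessible, with a median of 9.172. Of 30 further genes of the ubiquitin and proteasome pathway 29 were matched by symbol and all 29 were accessible, with a median of 11.17. The differences between these lists were not tested.

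**Figure D1:**
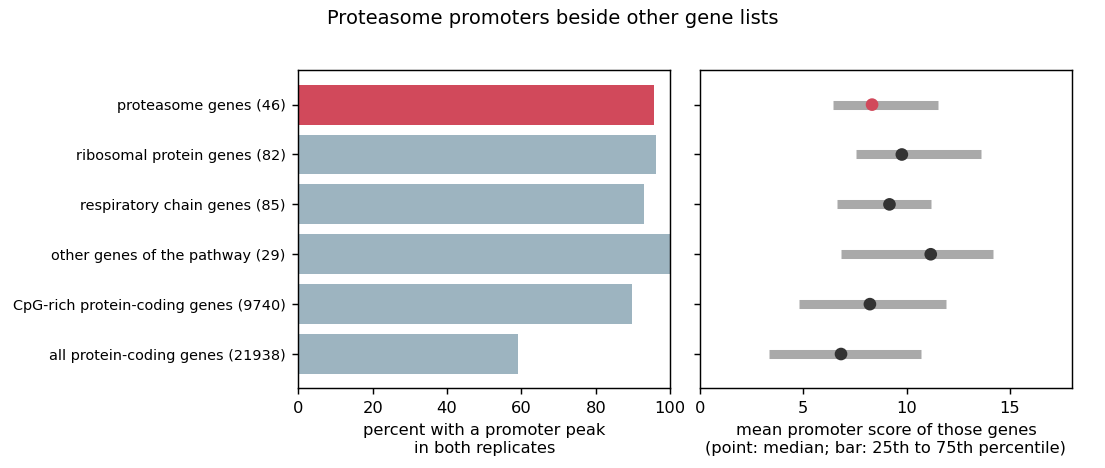
Left, percent of each gene list with a strict promoter peak in both replicates; right, median (point) and 25th to 75th percentile (bar) of the mean promoter score over those genes. Gene numbers are in brackets. The proteasome genes reach 95.7% beside 59.0% of all protein-coding genes, and their median score of 8.33 lies near that of CpG-rich genes, 8.225.

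The alpha ring genes were accessible except for Psma8. Psma2 was the highest, at 15.71 in replicate 1 and 10.45 in replicate 2 (13.08 ± 3.72, SD, n = 2). Its peak ends before the TSS, at positions -259 to -40, toward the divergent gene Mrpl32, which encodes a mitochondrial ribosomal protein. Psma1 followed with 13.3 and 8.66 (10.98 ± 3.28). Psma7, the constitutive counterpart of Psma8, was the lowest with a peak, at 7.0 and 5.123 (6.062 ± 1.33), and next came Psma4 at 7.378 and 5.767 (6.573 ± 1.14). Replicate 1 was higher than replicate 2 in all 7 accessible alpha genes. Psma3, Psma5 and Psma6 had means of 6.893, 8.027 and 7.443. Psma4, Psma6 and Psma7 differ from each other by about as much as their replicates do.

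Psma8 had no peak on the strict list or on the longer, looser one in either replicate, and no stretch of the deposited cut-rate track was listed within 1000 bp of any of its starts. At the 44 accessible genes, 529 to 1773 bases within 1000 bp of the TSS were listed in that track at a false discovery rate of at most 0.001. Of the overlapping 31-base words around the Psma8 TSS, 99.0% occur once in the reference. Psme2b likewise had no peak on either list and no listed stretch in either replicate. Only 37.0% of the words around the Psme2b TSS are unique, the lowest share of the 46 genes, the next being 82.1% at Psmd12. At Psme2b an inaccessible promoter and reads that could not be placed cannot be told apart.

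The beta ring genes divided into high and low members. Psmb3 scored 13.05 and 13.92 (13.49 ± 0.616) and Psmb2 15.59 and 11.35 (13.47 ± 3.0), which do not differ beyond their spread. Psmb1 followed with a mean of 11.81. Both Psmb3 replicates exceeded every value of the lower beta genes. Psmb4 was the lowest, at 5.059 and 3.762 (4.411 ± 0.917), and Psmb7, the subunit with trypsin-like activity, scored 4.926 and 4.619 (4.772 ± 0.217). The other catalytic genes were Psmb5, with the chymotrypsin-like site, at a mean of 5.697, and Psmb6, with the caspase-like site, at 7.404. So the 3 catalytic genes lay below the 3 highest non-catalytic beta genes in both replicates, and Psmb4, also not catalytic, lay below all 3 catalytic genes on average. Psmb1 had a further peak of 11.05 and 8.296 over an annotated start about 1.4 kb downstream of its 5′ end.

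The catalytic subunits left out by the rule give the contrast. Psmb9 scored 22.57 and 15.21 at the peak it shares with the divergent antigen transporter gene Tap1, above every gene of the set in each replicate. Psmb8 scored 10.02 and 4.631 and Psmb10 3.378 and 2.48, where the highest peaks of the replicates did not overlap. Psmb11 had no promoter peak. Of the 8 thymic epithelial markers that include it, 4 were accessible, beside 12 of 12 thymocyte markers, 2 of 5 B cell, 1 of 6 myeloid, 1 of 5 erythroid and 4 of 6 fibroblast or endothelial markers. The share over all protein-coding genes was 59.0%. Some marker peaks also lay within 1000 bp of a start of another gene, such as Ccl25 with Elavl1, Pecam1 with Milr1 and Cd8b1 with Smyd1. The part of each cell type in the promoter values was not tested.

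The ATPase genes, all 6 of them accessible, ran from the lowest score among genes with a peak to one of the highest. Psmc5 scored 13.63 and 14.49 (14.06 ± 0.608) and Psmc4 13.9 and 9.256 (11.58 ± 3.29), while Psmc3 had a mean of 11.48. Psmc1 was the lowest, at 3.407 and 2.492 (2.95 ± 0.647), followed by Psmc2 at 5.555 and 3.792 (4.674 ± 1.25). Psmc6 had a mean of 6.693. Psmc1 and Psmc5 do not overlap in either replicate although their products sit in the same ring of 6 in equal numbers. Psmc1 was low in height but not in extent: its peak spanned 520 bp in replicate 1 and 280 bp in replicate 2, where the median over the set was 220 bp in each. Psmc3ip, which is not a subunit, scored 9.155 and 8.192 (8.674 ± 0.681).

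The non-ATPase genes of the cap held the highest scores, with a median of 10.43 over 11 genes. Psmd4, a ubiquitin receptor, scored 20.83 and 13.25 (17.04 ± 5.36), and Psmd3, a lid scaffold subunit, 17.21 and 12.15 (14.68 ± 3.58). These are the 2 highest of the set in replicate 1, while in replicate 2 Psmc5 and Psmb3 were above them. Psmd14, the deubiquitinase that strips ubiquitin chains, was the lowest, at 5.741 and 3.604 (4.672 ± 1.51), and Psmd6 was next at 6.792 and 6.296 (6.544 ± 0.351). Psmd7, which pairs with Psmd14 in the cap, had a mean of 9.083. The base scaffolds Psmd1 and Psmd2 had means of 7.836 and 10.43. The lid genes Psmd8, Psmd11, Psmd12 and Psmd13 had means of 12.59, 10.55, 11.68 and 9.73, with Psmd12 at 12.16 and 11.19. The medians of the other groups over genes with a peak were 9.086 for the ATPases, 7.443 for the alpha ring, 7.404 for the beta ring, 7.665 for the activators and 7.608 for the assembly chaperones.

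The activators cap the core particle in place of the 19S. Psme4, the large nuclear activator, scored 10.63 and 8.448 (9.539 ± 1.54). Psme3, also nuclear, scored 11.47 and 5.792 (8.633 ± 4.02) and was the gene whose replicates differed most as a ratio. In replicate 2 the region carried a further peak of 4.825 at positions -352 to -153 that was not on the strict list of replicate 1. Psme1 and Psme2, which form the interferon-inducible activator, were lower, at 6.578 and 4.552 (5.565 ± 1.43) and at 7.481 and 5.913 (6.697 ± 1.11). The Psme2 value comes from a peak at positions -687 to -388 that lies at the divergent ubiquitin ligase gene Rnf31. The peak over Psme2's own starts scored 3.23 and 2.078. The inhibitor Psmf1 scored 7.889 and 6.266 (7.077 ± 1.15).

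The assembly chaperones bind unfinished subcomplexes and leave before the particle is complete. Psmg1 was the highest, at 15.46 and 11.15 (13.3 ± 3.05), and its partner Psmg2 was the lowest, at 5.726 and 3.446 (4.586 ± 1.61). Psmg4 scored 10.9 and 8.393 (9.648 ± 1.78), and its partner Psmg3 6.326 and 4.71 (5.518 ± 1.14). In both dimers one gene scored above the other in each replicate without overlap. The chaperones of the base, Psmd5, Psmd9 and Psmd10, had means of 8.878, 7.608 and 5.301. Psmd10 scored 5.637 and 4.965 (5.301 ± 0.475), and Psmd9 7.644 and 7.572, the most similar replicates of the set.

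**Figure D2:**
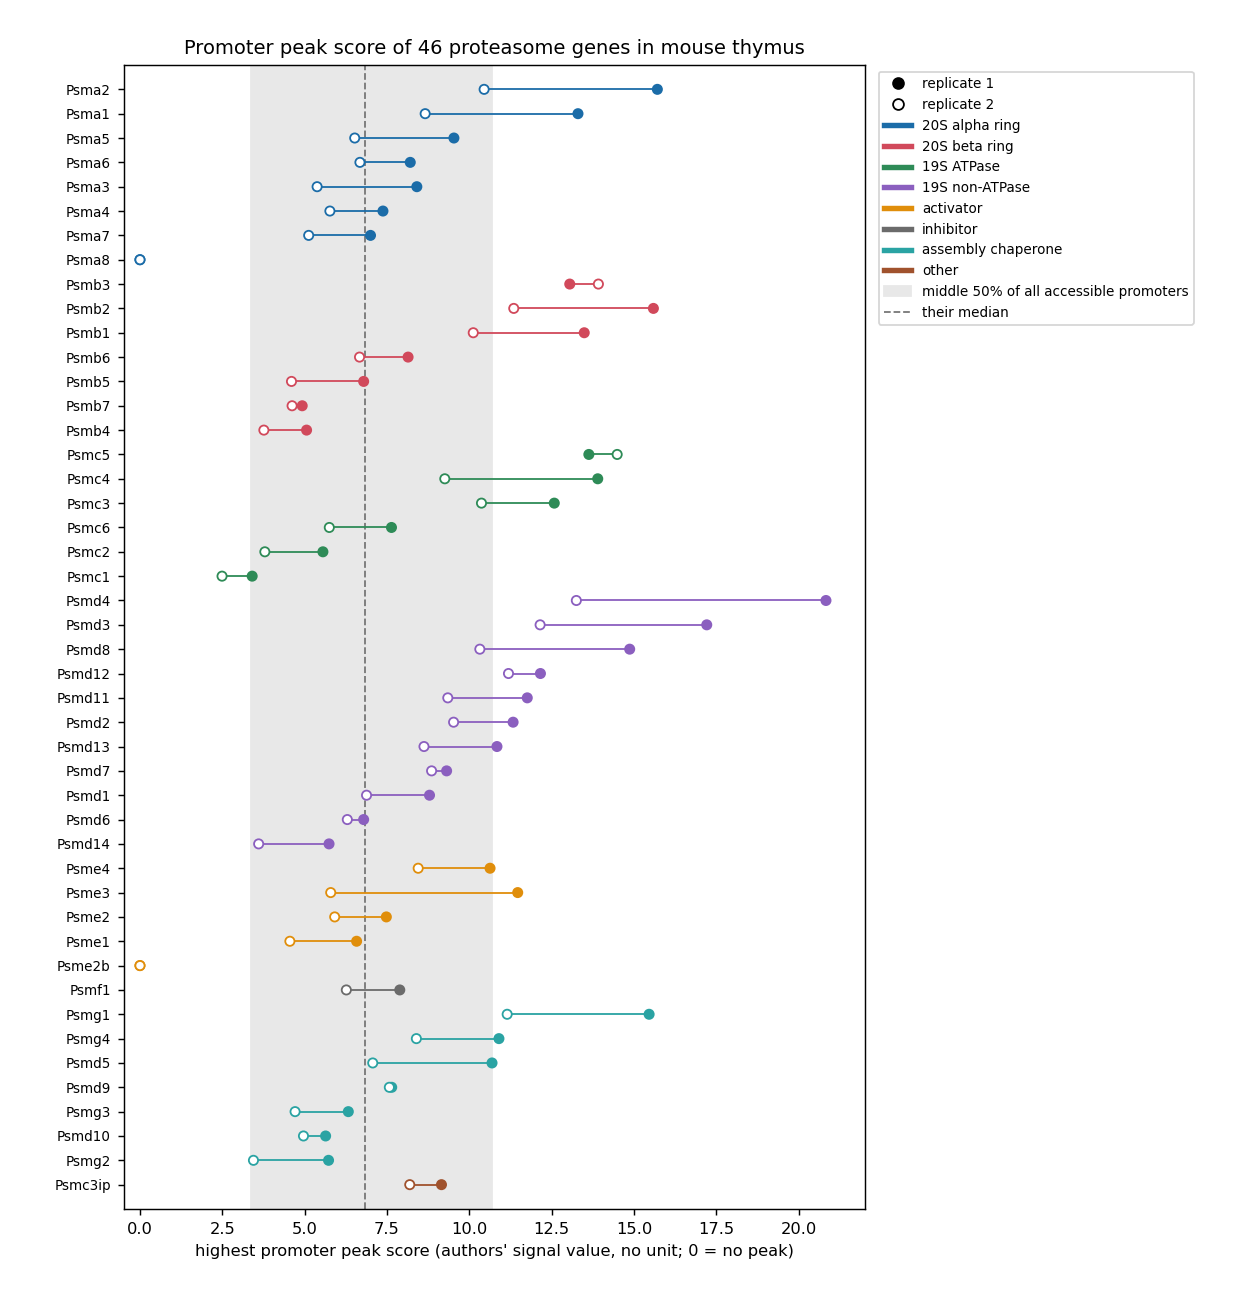
Highest promoter peak score (authors' signal value) of each of the 46 genes in replicate 1 (filled) and replicate 2 (open), grouped by role and ordered by mean; the grey band is the middle 50% of all protein-coding genes with a peak in both replicates and the dashed line their median of 6.827. Replicate 1 is higher for all but Psmb3 and Psmc5 among the 44 genes with a peak, and Psma8 and Psme2b sit at 0.

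Replicate 1 was above replicate 2 in 42 of the 44 genes with a peak, where the share over all accessible promoters was 89.1%. The median log2 ratio of replicate 2 over replicate 1 was -0.41, beside -0.37 over all such genes. It ran from -0.99 at Psme3 to 0.09 at Psmb3 and Psmc5. After Psme3 the replicates differed most at Psmg2 (-0.73) and Psmd14 (-0.67). Across the 44 genes the log2 scores of the replicates had a Pearson r of 0.93, a description over genes that share both libraries. The scores were whole multiples of 0.007407 in replicate 1 and 0.006077 in replicate 2. In these steps the proteasome peaks held 460 to 2812 in replicate 1 and 410 to 2384 in replicate 2, where the median strict peak held 213 and 226. In every case the highest peaks of both replicates overlapped.

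Peaks sat on the start sites. In 42 of the 44 genes the highest peak covered an annotated TSS in both replicates, against 69.9% of all accessible promoters, the exceptions being Psma2 and Psme2. It covered the 5′-most start in 34 genes, against 54.0%. The first of these counts takes any annotated start, as do those of accessible promoters and distal peaks. The median number of annotated starts was 5 per proteasome gene and 3 per protein-coding gene. The part of this difference in the shares was not tested. The peak of Psma6 lay at a start 14573 bp downstream of the annotated 5′ end, and that of Psmd9 at a start 58845 bp downstream. At Psmd5 and Psmf1 the start was 4006 and 2876 bp downstream. Psmd13 had peaks at 2 of its 10 annotated starts, of 4.704 and 4.722 at the 5′ end and of 10.84 and 8.624 at a start 446 bp downstream.

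Proteasome promoters were shared with another gene about as often as other accessible promoters. In 14 of the 44 genes (31.8%) the peak also lay within 1000 bp of another annotated gene's start. The background was 32.7%. A coding gene on the opposite strand was that neighbour in 10 genes (22.7%), beside 18.2%. These pairs were Psma2 with Mrpl32, Psma4 with AY074887, Psma7 with Ss18l1, Psmb1 with Tbp, Psmc2 with Dnajc2, Psmc5 with Ftsj3, Psmd10 with Atg4a, Psmd13 with Sirt3, Psme2 with Rnf31 and Psmg2 with Cep76. Tbp encodes the TATA-binding protein, Atg4a a protease of autophagy and Sirt3 a mitochondrial deacetylase. The score of such a peak cannot be divided between its genes. Of the 46 genes 10 (21.7%) lie on chromosome 11, beside 7.47% of all protein-coding genes, a chromosome singled out after the positions were seen.

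Footprints were found in every accessible proteasome promoter. The median was 5 footprints per peak in each replicate, the same as over all accessible promoters. A stretch footprinted in both replicates was present in 44 of 44 common peaks, close to the 96.9% of all 12422 genes whose highest peaks overlap. Such stretches made up 29.1% of the common-peak bases of the proteasome genes and 26.1% of those of all genes. There were 174 stretches with a median width of 13 bp, of which 101 lay upstream of the TSS, 54 downstream and 19 over it.

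Psmg2, Psmd14, Psmc4 and Psmc1 had the most footprints. Psmg2 had 9 footprints in replicate 1 and 14 in replicate 2. Psmd14 had 11 and 9, and 9 shared stretches. Psmc4 had 8 and 7, with 8 shared stretches over 52.9% of the common peak, and Psmc1 had 11 and 4. Psmg2, Psmd14 and Psmc1 are low-scoring genes with wide peaks, whereas Psmc4 is a high-scoring one. Psmb2 had only 6 footprints in each replicate, but 55.0% of its common peak was footprinted in both, the highest share, before Psmc4 (52.9%), Psmg1 (51.8%) and Psmd1 (50.6%). The lowest share was 4.62% at Psme1, which had 6 footprints in replicate 1 and 1 in replicate 2.

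**Figure D3:**
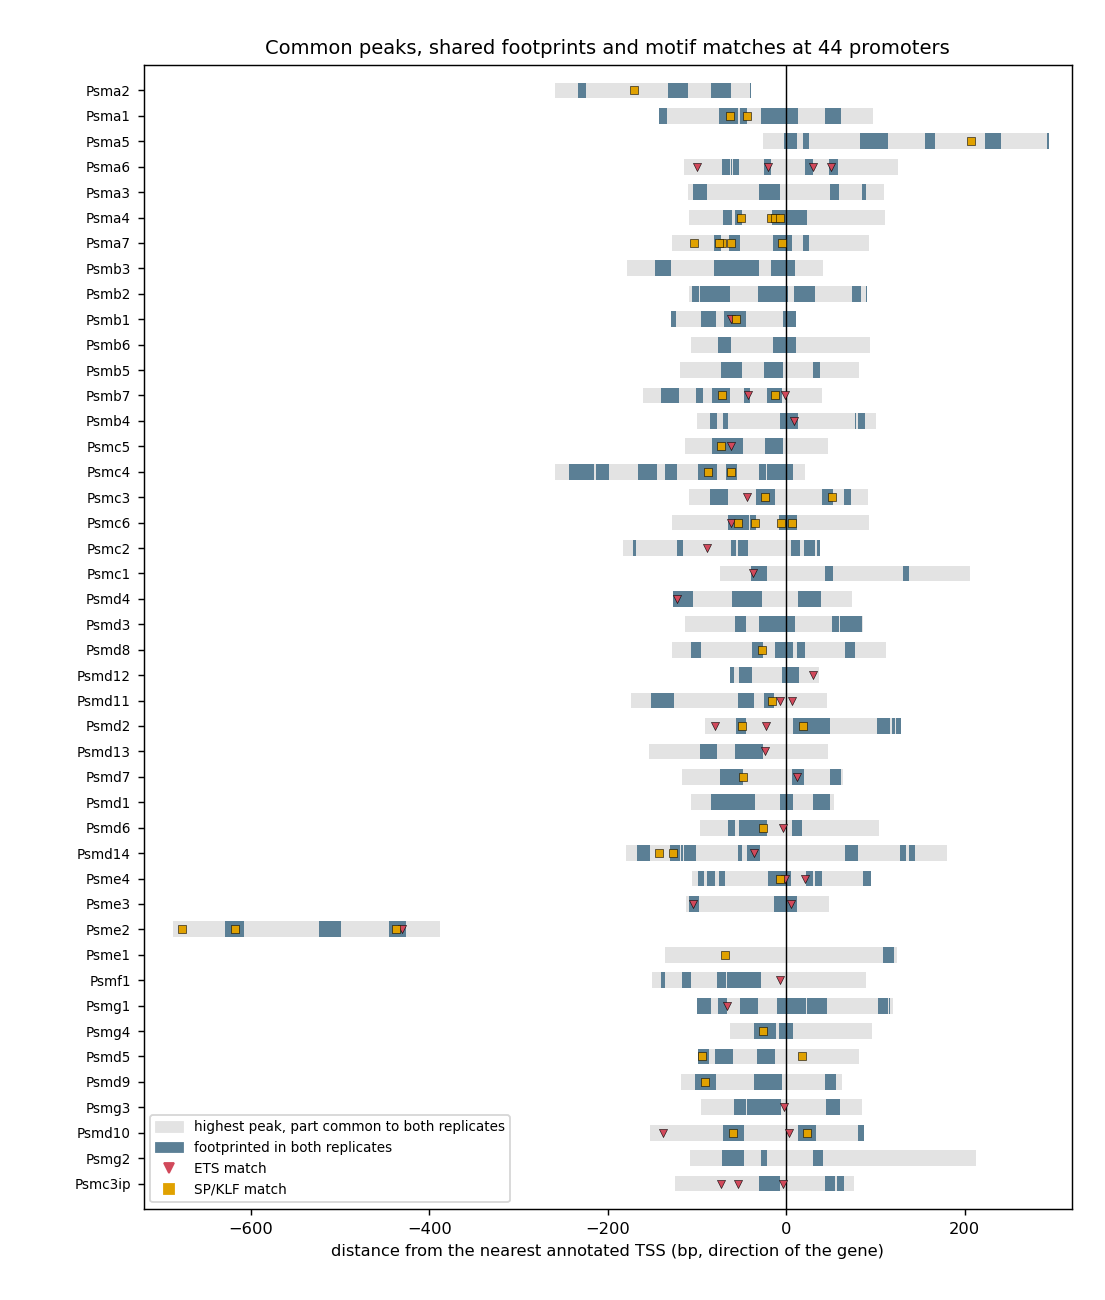
Part of the highest promoter peak common to both replicates (grey), stretches footprinted in both (blue) and matches to the ETS core (triangles) and the SP/KLF core (squares), by distance in bp from the nearest annotated TSS. Genes are ordered as in the plot of scores. The peaks cross position 0 in all rows except Psma2 and Psme2, and 19 of the 174 stretches cover it.

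The motif whose share differed most from its background, in percentage points, was the ETS core, among 15 motifs searched on both strands from 250 bp before to 50 bp after the 5′ end. ETS proteins are a large family of activators that bind many housekeeping promoters. CCGGAA occurred in 23 of the 46 genes (50%), against 17.5% of all protein-coding genes and 26.2% of those with an accessible promoter. The longer form CCGGAAG, which contains it, occurred in 17 genes (37.0%), against 10.8% of all, 16.6% of accessible and 18.6% of CpG-rich genes. In the same window the share with CCGGAA was 28.9% of CpG-rich genes, 39.0% of the ribosomal protein genes, 31.8% of the respiratory chain genes and 24.1% of the further pathway genes. The differences were not tested. At the start nearest to the peak, a window chosen after the data were seen, 28 proteasome genes (60.9%) had a match. The share there was 19.2% of all protein-coding genes and 29.2% of those with an accessible promoter. Both genes without a peak, Psma8 and Psme2b, also have a match at the 5′ end.

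A match was not always footprinted. The common peaks of 25 of the 44 accessible proteasome genes held an ETS match, beside 28.4% of all accessible genes. There were 36 such matches. Of these, 18 (50%) touched a footprint in both replicates, close to the 52.1% over all accessible promoters. The 14 genes with such a match were Psma6, Psmb1, Psmb4, Psmb7, Psmc1, Psmc5, Psmc6, Psmd4, Psmd7, Psmd14, Psme2, Psme3, Psme4 and Psmg1. In Psmc5 the match also spans positions -64 to -59, as in Psmc6 and, in the opposite direction, in Psmb1 above. This position was singled out after the matches were seen, and its share over all genes was not counted. Of the 36 matches, 22 lay within 50 bp of the TSS, in 18 genes, which is 40.9% of those with a common peak, beside 14.7% over all accessible genes with one; this distance was chosen after the positions were seen. A footprint over these letters does not say which protein was bound.

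The SP/KLF and NFY elements were searched in the same window. GGGCGG, the core bound by SP and KLF factors, occurred in 25 genes (54.3%), against 43.0% of all, 60.4% of accessible and 71.7% of CpG-rich genes. In the common peaks 34 of 41 sites (82.9%) touched a footprint in both replicates, beside 66.5% over all accessible promoters. Overlapping matches were counted as 1 site. CCAAT, the NFY element, occurred in 19 genes (41.3%), against 39.0%, and 7 of 21 sites (33.3%) were footprinted, beside 36.0%. In Psmb1, Psmc5 and Psmc6 a footprinted GGGCGG, in either direction, started at positions -59, -76 and -57, near the footprinted ETS match that starts at position -64 in each. It started upstream of the ETS match in Psmc5 and downstream of that start in Psmb1 and Psmc6. These genes were picked after the positions were seen, and such pairs were not counted over all genes.

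The antioxidant response element core TGACNNNGC is of interest because NFE2L1 and NFE2L2 bind it. Both are known to raise transcription of proteasome genes, NFE2L1 when proteasome activity falls. The core occurred in 6 of the 46 genes (13%), against 12.5%: Psmb2, Psmb5, Psmb6, Psmc6, Psmd7 and Psmd12. The common peaks held 8 sites, in Psma1, Psma3, Psmb2, Psmb5, Psmb6, Psmd3, Psmd9 and Psme4, and none in Psmc6, Psmd7 or Psmd12. Of the 8, 5 (62.5%) were footprinted, beside 47.9% over all accessible promoters. These 5 were in Psmb2, Psmb5, Psmb6, Psmd3 and Psmd9. The match in Psmb5, TGACGTCGC at positions -20 to -12, lay wholly inside a footprint of both replicates, and that of Psmb2 at position -1 was covered in part. The promoter of Nfe2l1 itself scored 14.93 and 13.13, and that of Nfe2l2 8.555 and 6.916.

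The remaining motifs were found in few genes. AAGATGGCG (YY1) occurred in Psmb6, Psmc5 and Psmd7, 3 of 46, against 1.70%. In the common peaks 1 of 5 sites (20%) was footprinted, beside 43.2% over all accessible promoters. That site, in Psmd7 at position -72, was wholly footprinted. GCGCATGCG (NRF1) occurred in Psma2 and Psmg1, against 2.48%. In the common peaks 2 of 3 sites (66.7%) were footprinted, beside 95.6% over all accessible promoters. These were the site in Psmg1 and that in Psma2 from position -125, while the Psma2 site from position -188 was not footprinted. CTCGCGAG (BANP or ZBTB33) occurred in Psmb2, against 1.21%, and the pair in Psmd5 lies at a start away from the 5′ end. TGACGTCA (the cyclic AMP response element) occurred in Psmb2 only, against 2.43%. TGTGGT (RUNX) occurred in 8 genes, against 15.3%, CACGTG (the E-box) in 5, against 7.75%, and TATAAA (the TATA box) in 4, against 12.6%. ACTACAA (THAP11) occurred in Psmd10 and Psmd11, against 3.70%. TTTCCCGC (E2F) occurred in Psmc4, against 1.34%, and GAANNTTC (the heat shock element) in Psmb5, against 7.56%. An absent match says only that these letters are not in the window.

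**Figure D4:**
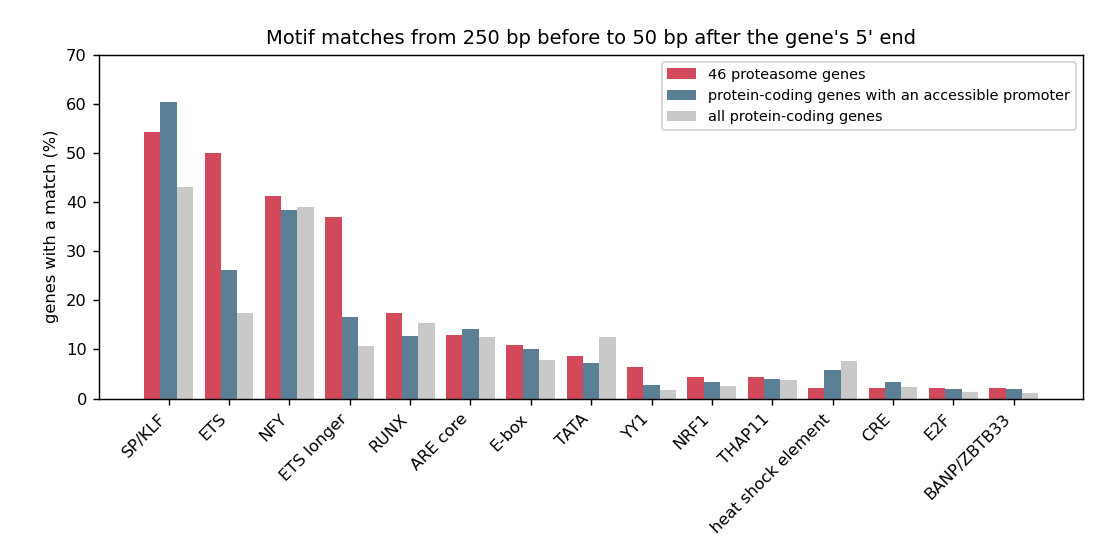
Percent of the 46 proteasome genes (red), of protein-coding genes with an accessible promoter (blue) and of all protein-coding genes (grey) with at least 1 match to each of 15 motifs in the window at the 5′ end. The ETS bars are 50%, 26.2% and 17.5%, whereas the NFY bars are 41.3%, 38.3% and 39.0%.

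The number of distal peaks was near that of other genes. A distal peak was a strict peak shared by both replicates and over 1000 bp from every annotated TSS, and was counted within 50000 bp of any TSS of the gene. The median was 2.5 per proteasome gene and 2 per protein-coding gene. At least 1 was found near 39 of the 46 genes, against 70.5%, and 10 or more near Psmd9, Psmd12 and Psma6, against 2.81%. There was none near Psma4, Psma5, Psmb2, Psmc4, Psmc6, Psmd10 or Psme2b, so that the strong promoters of Psmb2 and Psmc4 stood without a distal peak in reach. Of 147 gene and peak pairs, the nearest coding TSS was the proteasome gene's own in 54.

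Psma6 differed from the other 2 genes with many distal peaks. All 10 of its peaks had Psma6 as the nearest coding TSS, and 4 lay inside the gene, between its 5′ end and the start under the promoter peak. Several of them are nearest to the annotated 5′ end, which had no strict peak within 1000 bp in replicate 1 and one of 1.033 in replicate 2. Those at chr12:55355021-55355220 and chr12:55372776-55372947 lie inside 1110008L16Rik. All 10 were also within reach of the start under the promoter peak. The strongest, at chr12:55388641-55388860, scored 7.274 in replicate 1 and 8.63 in replicate 2, beside 8.207 and 6.679 at the promoter, so the values of the peaks overlap. Psmd9 had 14, of which only 2 were nearest to its own TSS and 6 lay inside Setd1b. They are counted mainly through its far upstream annotated start, and within reach of the start that carries the promoter peak there were 3. Psmd12 had 11, of which 2 were nearest to its own TSS and 6 lay inside Pitpnc1. Psmc3ip had 7, none of them nearest to it, and Psmg1 and Psmg3 had 6 each.

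The strongest distal peak near any gene of the set was 14388 bp from Psmb5, at chr14:54603321-54603620 inside 4931414P19Rik, with 10.68 and 8.551. Both values exceed those of the Psmb5 promoter, 6.792 and 4.601. At Psmc2 a peak 1358 bp from the nearest Psmc2 start, at chr5:21786641-21786840, scored 9.807 and 6.916, above the promoter's 5.555 and 3.792 in both replicates. The median score of the distal peaks near proteasome genes was 1.85, beside 1.45 over all 29398 shared distal peaks. Which gene a distal peak acts on was not measured.

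**Figure D5:**
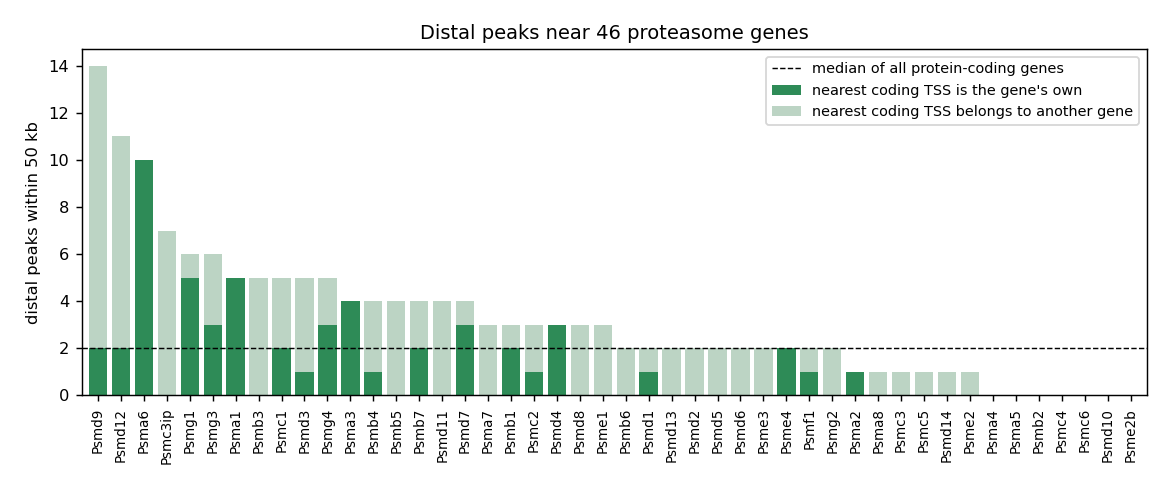
Number of shared distal peaks within 50000 bp of each of the 46 genes, split by whether the nearest coding TSS is the gene's own (dark) or another gene's (light); the dashed line is the median of all protein-coding genes, 2. Psmd9 has 14, Psmd12 11 and Psma6 10, and only for Psma6 are all of these nearest to the gene itself.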

How the data were processed

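DNase-seq of 2 thymus samples was analysed from interval files that the authors deposited per sample and not pooled, on mm10 per the labels. The authors deposited 2 peak lists per sample whose signal value per peak, without a stated unit or normalization, was used as the score; the list with fewer peaks is called strict. They also deposited a track of cut-rate false discovery rates, read as a p-value scale, and footprint intervals, of which only the positions were used. For the aligner, peak caller and footprint caller, names were not given in the sources used here.

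Overlapping entries of a list were joined, keeping the highest score (62230 and 66839 strict peaks). Peaks were assigned to genes within 1000 bp of any TSS of GENCODE M21. Footprints overlapped a peak by at least 1 bp. Motifs were searched as exact letters on both strands of GRCm38. Python 3.11.15, numpy 2.4.6, pandas 2.3.3 and pysam 0.24.0 were used. The assignment of peaks to starts, the distal filter, the overlap of replicates and the motif search were tested on simulated data. The footprint steps were not. No test was run: there is 1 group, and n = 2 limits precision. The labels call the replicates biological, but with 1 donor identifier for both they may be technical in part.

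The genes, lists, motifs and alternatives were chosen with earlier results of these data known. Values per replicate are given for genes without a peak, the highest and lowest 2 of each role, the 5 with most distal peaks, the 3 with most footprints and the 3 whose replicates differ most. Sequences shown were limited to 10 genes with a footprinted match.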

Additional observations from a re-analysis of the deposited data

How the results depend on the processing

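No paired analysis was possible because there is 1 group. The median promoter score of the proteasome genes, 7.932, was 6.779 to 8.974 with either replicate left out, 9.294 with scores summed, and 3.858 per 100 bp of peak width. Over all protein-coding genes the median of 1.957 became 1.716 with a window of 500 bp, 2.34 with 2500 bp, 1.167 at the 5′ end only, 2.511 with scores summed and 0.759 per 100 bp of width. The scale itself changes in the last of these. The count of accessible proteasome genes was 44 under every window, peak list and single replicate tried and 40 at the 5′ end only. Under the former settings the share of all protein-coding genes ran from 55.9% with the 50000 highest peaks to 62.66% with the looser list. At the 5′ end only it was 54.35%. The percent of protein-coding genes accessible rose to 89.85 when only CpG-rich genes were counted. The median number of distal peaks, 2.5, was 1 within 25000 bp, 4 within 100000 bp and 1.5 for peaks over 2500 bp from any TSS; Psmd9 fell from 14 to 3 when only the start under its promoter peak was used, an alternative chosen after the data were seen. The median replicate difference was -0.04 when centred on all accessible promoters. The counts of genes with ETS, SP/KLF, NFY and antioxidant response element matches stayed within 1.5 times under each window. The score has no stated unit and the depth is unknown, so no interval for counting error can be given.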

Other observations

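Among the further genes of the ubiquitin and proteasome pathway, the highest promoter scores were those of Rad23b, a shuttle that carries ubiquitinated proteins to the proteasome (29.34 in replicate 1 and 19.18 in replicate 2), the ubiquitin ligase gene Ubr4 (28.08 and 17.19) and Uba6, a ubiquitin-activating enzyme (25.14 and 18.98). All 3 lay above every proteasome gene in replicate 2, and above every one in replicate 1. The lowest was the shuttle gene Ubqln2, at 3.607 and 2.23. Vcp, the ATPase that extracts ubiquitinated proteins from complexes and membranes, scored 18.16 and 14.15. Adrm1, another ubiquitin receptor of the cap, scored 16.96 and 11.42, beside 20.83 and 13.25 for Psmd4. Pomp, the maturation factor of the core particle, scored 7.585 and 6.083.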
